A study of Mus musculus with 2 samples.

Results

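The axon initial segment is the stretch of axon next to the cell body where action potentials start, and the 9 genes described here encode the ankyrins, spectrins and L1-family adhesion molecules that build its membrane skeleton: Ank2, Ank3, Sptan1, Sptb, Sptbn1, Sptbn4, Nfasc, Nrcam and L1cam. They were chosen by gene symbol, and all 9 were found among the 55536 annotated genes of the deposited tables. The RNA, cleared of ribosomal RNA before sequencing, came from female B6CASTF1/J mice (C57BL/6J and CAST/EiJ hybrids) aged 14 days. The labels call the tissue a layer of the hippocampus without naming it, and it is called hippocampus here. The 1 group holds 2 libraries, replicates 1 and 2, each listing 3 females and 300 ng of RNA with added ERCC spike-in RNAs. Both libraries carry 1 donor identifier, so the spread between them may be partly technical. With 1 group there is no second condition, and no test between groups was possible.

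Ankyrins are adaptors: a repeat domain binds membrane proteins, and a spectrin-binding domain ties them to the skeleton beneath. Spectrins are rods made of an alpha and a beta chain, spaced along axons between rings of actin. The L1 family spans the membrane, contacts other cells or matrix outside, and binds ankyrin through its cytoplasmic tail. At the initial segment ankyrin-G (Ank3) holds sodium and potassium channels, neurofascin (Nfasc) and NrCAM (Nrcam), and links them to beta-IV spectrin (Sptbn4). The same proteins gather at nodes of Ranvier, and a glial form of neurofascin sits in the flanking paranodal junction. Ankyrin-B (Ank2), alpha-II spectrin (Sptan1) and beta-II spectrin (Sptbn1) form the skeleton of the rest of the axon, and beta-I spectrin (Sptb) is the erythrocyte beta chain that neurons also make.

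Much of what distinguishes these genes lies in short exons that are used or skipped, so the exons on which the results turn are shown first. Each sequence was read from the GENCODE M21 transcripts on mm10 and runs 5′ to 3′ along the message, with the exon in capitals and 20 bases of the neighbouring exons in lower case. Both ankyrins have a 24-base exon in the repeat domain region of the message, at chr3:127052226-127052249 on the minus strand in Ank2 and chr10:69823078-69823101 on the plus strand in Ank3. They are shown because exons so alike stood at very different rates over the annotated models.
Ank2 24-base exon: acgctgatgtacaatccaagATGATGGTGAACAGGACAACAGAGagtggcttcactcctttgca
Ank3 24-base exon: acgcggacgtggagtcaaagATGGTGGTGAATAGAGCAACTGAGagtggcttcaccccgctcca
The exons are the same at 19 of 24 bases, and their flanks at 30 of 40. A further pair of 12-base exons lies at chr3:126979256-126979267 and chr10:69929447-69929458, with the same letter at 6 of 12 exon bases and 25 of 40 flank bases.
Ank2 12-base exon: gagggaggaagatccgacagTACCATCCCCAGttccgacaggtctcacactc
Ank3 12-base exon: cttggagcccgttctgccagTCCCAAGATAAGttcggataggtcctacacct

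The L1 family has a short exon near the start of the protein, of 15 bases in L1cam (chrX:73867022-73867036, minus strand) and 18 bases in Nfasc (chr1:132637864-132637881, minus strand) and Nrcam (chr12:44535057-44535074, plus strand). In L1cam this exon and a 12-base exon of the cytoplasmic tail are textbook neuronal exons, skipped in many other cells, which is why both are shown.
L1cam 15-base exon: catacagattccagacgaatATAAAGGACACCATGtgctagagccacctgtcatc
Nfasc 18-base exon: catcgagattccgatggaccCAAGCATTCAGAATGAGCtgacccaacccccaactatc
Nrcam 18-base exon: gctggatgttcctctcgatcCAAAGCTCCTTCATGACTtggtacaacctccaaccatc
The Nfasc and Nrcam exons match at 9 of 18 bases and their flanks at 26 of 40. The tail exons of 12 bases lie at chrX:73855652-73855663 in L1cam and chr12:44597782-44597793 in Nrcam, and match at 8 of 12 bases.
L1cam 12-base exon: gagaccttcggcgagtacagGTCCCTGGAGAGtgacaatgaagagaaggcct
Nrcam 12-base exon: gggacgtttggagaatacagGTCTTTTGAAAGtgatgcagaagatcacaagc
One exon of the alpha spectrin is added, 60 bases at chr2:30001100-30001159 on the plus strand, because it was the alpha chain's only exon used part of the time.
Sptan1 60-base exon: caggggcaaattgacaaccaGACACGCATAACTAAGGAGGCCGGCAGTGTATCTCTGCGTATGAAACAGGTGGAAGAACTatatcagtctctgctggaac

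The libraries held 33465393 and 32879872 expected counts (estimated reads per gene), and the 9 genes took 0.703% and 0.715% of the counts on annotated genes. Between 5918 and 55215 counts lay behind each member in each library. All 5 neuronal markers were present, with a median of 375 and 356 TPM (transcripts per 1000000, a level scaled for transcript length), and so were all 6 myelin markers, with medians of 161 and 160 TPM. All 5 astrocyte, 3 microglial and 3 endothelial markers also passed 1 TPM in both libraries. So did 5 of 6 red cell markers, whose TPM summed to 676 and 662, with Hbb-bs at 245 ± 0.205 and Slc4a1 listed at 0.26 and 0.16 TPM. The libraries stood apart in 5 choroid plexus markers, whose TPM summed to 1408 in replicate 1 but 6.29 in replicate 2. Ttr, the choroid plexus transthyretin gene, made up 1375 and 5.62 TPM of these. Its part in the members' values was not tested, and each member is therefore given in each library. In bulk tissue, fewer cells of a type and less RNA per cell cannot be told apart.

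On mm10 the ankyrin genes lie at chr3:126921612-127499350 (Ank2, minus strand) and chr10:69398773-70027438 (Ank3, plus strand). The spectrin genes lie at chr2:29965560-30031451 (Sptan1, plus), chr12:76580488-76710547 (Sptb, minus), chr11:30099395-30268175 (Sptbn1, minus) and chr7:27356383-27447686 (Sptbn4, minus). The adhesion genes lie at chr1:132564690-132741797 (Nfasc, minus), chr12:44328885-44601964 (Nrcam, plus) and chrX:73853778-73896105 (L1cam, minus). All 9 members were expressed at 1 TPM or more in both libraries. Their median was 193 TPM, against 14.9 TPM over 12905 protein-coding genes detected at that level, and the lowest member exceeded 79.0% of those genes. Levels spanned 10.7-fold. In the order of levels given next, no neighbours overlapped between libraries by the first quantification, although 2 libraries are few to judge by.

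The alpha chain led. Sptan1, the alpha spectrin of cells other than red cells, was at 416 TPM in replicate 1 and 422 in replicate 2 (419 ± 3.85, SD, n = 2), rank 88 among the detected protein-coding genes, between Cox8a at 426 and Basp1 at 418 TPM. It was the highest of the 9 in both libraries.

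The beta chains divided into abundant and scarce ones. Sptbn1, the beta chain of the general axonal skeleton, was at 293 and 290 TPM (292 ± 1.90), between Mlf2 at 299 and Aes at 291 TPM. Sptbn4, the beta chain of the initial segment and node, was at 47.0 and 46.7 TPM (46.8 ± 0.219), with Pdap1 just above at 46.9 and Dpysl5 just below at 46.8 TPM. Sptb stood lowest of the members at 37.4 and 40.8 TPM (39.1 ± 2.40), between Hcn2 at 39.15 and Gsn at 39.12 TPM. Sptbn5, a beta chain outside the 9, was at 0.20 TPM in both. Within a library, Sptbn1 exceeded Sptbn4 6.23-fold in replicate 1 and 6.22-fold in replicate 2, and Sptb 7.83-fold and 7.11-fold. These are ratios of messages and not of protein chains.

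Ankyrins were both abundant. Ank2 was at 363 and 375 TPM (369 ± 8.58), between Nell2 at 369.9 and Syt1, a synaptic vesicle calcium sensor, at 366 TPM. Ank3 was at 210 and 211 TPM (210.5 ± 0.976), next to the reticulon gene Rtn4 at 210.6 and to Mllt11 at 210.1 TPM. Ank2 thus exceeded Ank3 1.73-fold and 1.78-fold, and the erythrocyte paralog Ank1 reached only 9.74 and 8.54 TPM. The choice of transcripts mattered for this ratio. Over complete coding models alone Ank3 was at 63.2 and 66.1 TPM and Ank2 at 188.5 and 187.9 TPM, 2.98-fold and 2.84-fold apart. Against its clients, Ank3 stood 1.78-fold and 1.88-fold above Scn2a, a sodium channel that it holds at the initial segment, but at 0.724 and 0.763 of Scn2a over complete coding models.

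Of the adhesion genes, Nrcam was highest at 194.1 and 192.9 TPM (193.5 ± 0.841), between R3hdm4 at 194.3 and Atp5mpl at 192.4 TPM. Nfasc was at 120 and 112 TPM (116 ± 5.50), with Drap1 at 115.8 and Fam168a at 115.7 TPM beside it. L1cam, which guides growing axons, was at 92.4 TPM in replicate 1 and 74.5 in replicate 2 (83.5 ± 12.7), beside Srebf2 at 83.51 and Nrsn1 at 83.44 TPM. Of the 9 it varied most between libraries by TPM. The fourth family member Chl1, outside the 9, was at 74.6 and 76.9 TPM, so that L1cam lay above it in replicate 1 and just below it in replicate 2. By the second quantification L1cam lay above Chl1 in both libraries, at 241 and 189 against 111 and 109 TPM. Nfasc stood at 0.616 and 0.580 of Nrcam by all transcripts, but at 1.87 and 1.81 of it by complete coding models, since Nrcam held little of its TPM in such models.

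**Figure D1:**
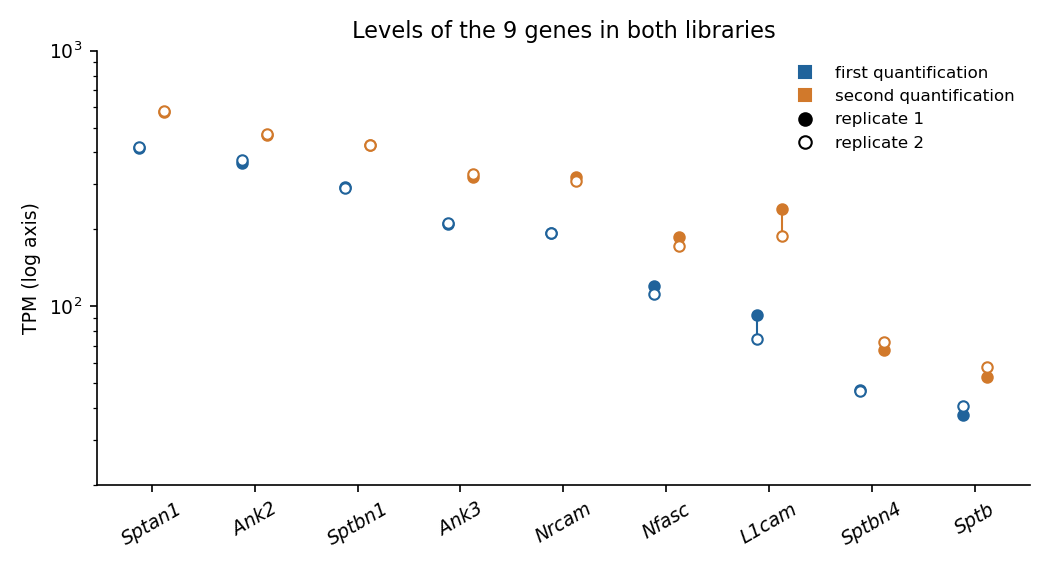
Level of each gene in TPM (log axis) in both libraries, from the first (blue) and second (orange) quantification, with replicate 1 filled and replicate 2 open. Sptan1 leads and Sptb is lowest in both, while L1cam shows the widest gap between libraries and moves above Nfasc in the second quantification.

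The ratio of replicate 2 to replicate 1 was taken on counts scaled by TMM, which sets a common scale from the bulk of the genes. None of the 9 members lay outside 1.2-fold, where 21.1% of 14715 genes with a mean of at least 1 TPM did. Among genes of at least 5 TPM that share was 12.9%, so part of the background comes from scarcer genes than these. The median size of the log2 ratio was 0.11 for the members and 0.12 for all genes. Sptb had the highest log2 ratio, 0.23 with a 95% counting interval of 0.19 to 0.27. Ank3 was at 0.17 and Sptan1 at 0.16, both with intervals above 0. Of the 9, 8 lay above 0 and L1cam alone below, at -0.21 with an interval of -0.26 to -0.16.

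The sign of 4 of these ratios depended on the scale. On deposited TPM the median of all genes was -0.08, against 0.01 on TMM-scaled counts, and Sptbn1, Sptbn4, Nfasc and Nrcam then fell on the other side of 0. On that scale 1 of the 9, L1cam, lay outside 1.2-fold at a log2 ratio of -0.31, where 21.9% of all genes did. The 5 neuronal markers summed to 1962 TPM in replicate 1 and 1838 in replicate 2, and the 5 astrocyte markers to 1686 and 1983 TPM. Neither list went 1 way. Slc1a2 was at 978 and 1181 TPM, and Slc1a3 and Aldoc were also higher in replicate 2, but Gfap was at 154 and 137 and Aqp4 at 75.6 and 69.6 TPM. Snap25 was at 659 and 596 TPM, and Syt1, Slc17a7 and Gad1 were also lower in replicate 2, but Rbfox3 was higher. The part of these markers in the members' ratios was not tested.

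**Figure D2:**
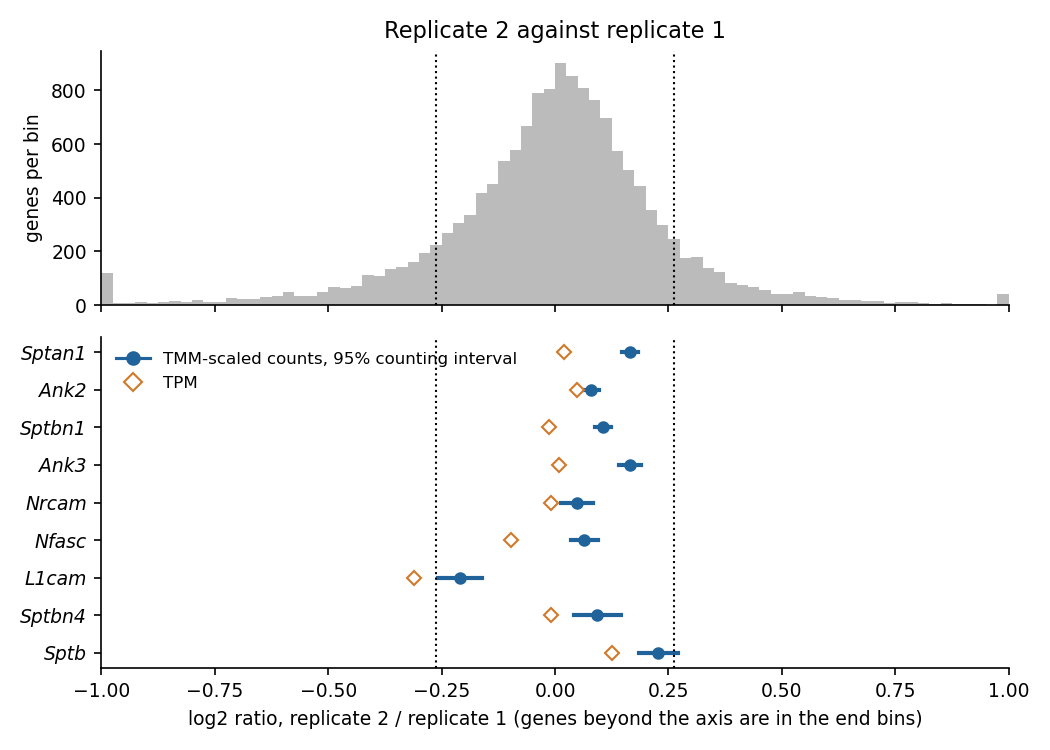
Upper panel, histogram of the log2 ratio of replicate 2 to replicate 1 for 14715 genes (TMM-scaled counts). Lower panel, the same ratio for each member with its 95% counting interval (blue) and the ratio of deposited TPM (orange diamonds). Dotted lines mark 1.2-fold, and only the TPM value of L1cam lies beyond them.

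The deposit holds a second quantification of these libraries, in the layout of kallisto output. It gave higher TPM for all 9 members, as for most genes, whose median log2 difference was 0.63. Against that, Ank2 was raised least, 1.27-fold, and L1cam most, 2.57-fold. L1cam was the only member over 2-fold apart in both libraries, where 12.1% of 14785 detected genes were. It reached 241 and 189 TPM and so passed Nfasc at 186 and 172 TPM, and Ank3 (320 and 330 TPM) and Nrcam (321 and 310 TPM) overlapped. Other neighbours kept their order, with Sptan1 at 577 and 579, Ank2 at 467 and 471, and Sptbn1 at 428 and 428 TPM. The counts behind these TPM differed far less, 1.11-fold and 1.10-fold for L1cam. TPM, unlike a count, is divided by transcript length, and the cause of the gap was not tested. In the second quantification L1cam-211 and L1cam-212, incomplete models of 571 and 570 bases, held 21.5% and 16.4% of L1cam TPM in replicate 1. By the first they held 0% each there.

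Short models weigh heavily in several of these long genes. The 9 genes have 148 annotated transcripts, 85 of them protein coding and 56 complete from start to stop codon. Complete coding models held 98.8% and 98.9% of the TPM of Sptb, 94.4% and 96.0% of Sptbn1, 93.5% and 93.9% of Sptbn4, and 87.5% and 92.0% of Nfasc. They held only 51.9% and 50.1% in Ank2, 30.1% and 31.3% in Ank3, and 28.9% and 29.5% in Nrcam. In L1cam they held 66.7% in both libraries, but 36.6% and 37.8% by the second quantification. By counts rather than TPM the share in Ank2 was 80.6% and 79.8%. Ank3-243, an incomplete model of 534 bases, shows how: it held 10.5% and 9.8% of Ank3 TPM from 220 and 205 of 25416 and 26392 counts. Sptan1-206, of 781 bases, likewise held 11.7% and 10.9% of Sptan1 TPM from 762 and 710 counts. Retained-intron models took 23.3% and 20.2% of Ank2 TPM, led by Ank2-216 at 18.8% and 16.2%, but 17.5% and 12.0% by the second quantification, with Ank2-216 at 11.6% and 7.19%. They took 31.7% and 31.3% of L1cam TPM, led by L1cam-209 at 14.6% and 15.9%, and 25.5% and 28.8% by the second quantification, with L1cam-209 at 13.5% and 17.1%.

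**Figure D3:**
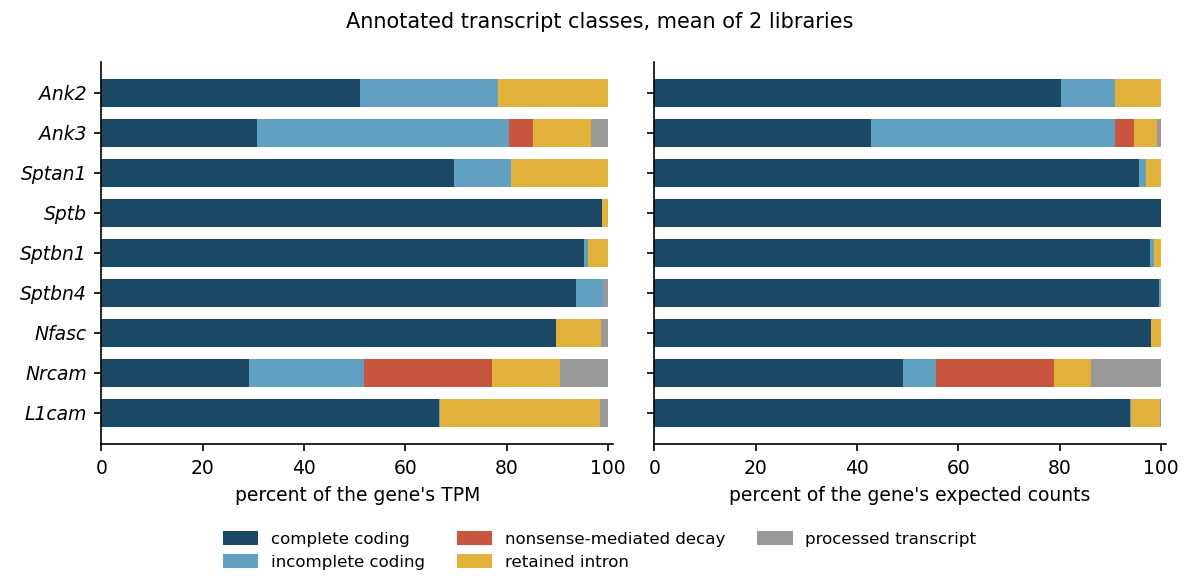
Share of each gene in 5 annotated transcript classes, mean of 2 libraries, as a percent of TPM (left) and of expected counts (right). Complete coding models hold 98.8% or more of Sptb TPM but less than 32% of Ank3 and Nrcam TPM, and their share is larger by counts.

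Giant exons mark the large neuronal forms of both ankyrins, which are found in axons and at initial segments. Ank2 has a coding exon of 6198 bases at chr3:126941610-126947807, found in Ank2-207 (12413 bases, 3926 codons) and Ank2-208 (14305 bases, 3900 codons). Inclusion is given here as the TPM of coding models with an exon over the TPM of coding models that hold or skip it. A model with an overlapping version of the exon was left out. The giant exon of Ank2 was included at 62.5% and 59.1%, and at 55.5% and 52.6% by the second quantification. Ank2-207 held 19.5% and 18% of Ank2 TPM and Ank2-208 7.4% and 6.6%, together 60.6% and 58.0% of its counts. Ank2-201, a form of 1050 codons without the exon that ends at the same stop codon as Ank2-207, held 16.2% and 17.0%.

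In Ank3 the corresponding exon has 7674 bases, at chr10:69986089-69993762, and was included at 41.5% and 41.2%, and at 41.9% and 42.2% by the second quantification. It is annotated in 1 model only, the incomplete Ank3-244 (8612 bases), which led Ank3 with 20.3% and 21.3% of its TPM. A 2550-base version in Ank3-233, named after its values were seen, stood at 20.9% and 19.9%. The 2 versions overlap, and the inclusion of each leaves out the model with the other, so these percentages cannot be added. None of the 22 complete Ank3 models holds either exon, so a full-length giant ankyrin-G message cannot be counted with this annotation. The complete models that led were Ank3-231, of 1961 codons, at 12.2% and 13.3% of TPM, and Ank3-240, of 1807 codons, at 13.2% and 10.6%. They share start and stop codons.

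The 24-base exons shown above went opposite ways. In Ank2 the exon was included at 98.1% and 98.5%, and in Ank3 at 19.8% and 20.2%, with 97.8% and 97.6% against 22.9% and 22.1% by the second quantification. In Ank2 only Ank2-203, at 0.96% and 0.72% of Ank2 TPM, skips the exon. In Ank3 only the incomplete Ank3-233, which also holds the 2550-base exon, carries it, so there its inclusion is 0% over complete models. Each rate thus rests on the TPM given to 1 annotated model. The 12-base exon stood at 12.4% and 14.5% in Ank2, with 19.7% and 22.2% by the second quantification and 6.0% and 7.3% by counts. Only the incomplete Ank2-218 carries it there, so in Ank2 its inclusion is 0% over complete models. In Ank3 the 12-base exon stood at 32.97% and 25.7%, and at 30.1% and 26.0% by the second quantification. Ank3-240 combines the Ank3 12-base exon with a set of tail exons of 54, 87, 84 and 57 bases, each at 33.1% to 33.2% in replicate 1 and 24.3% in replicate 2. These 5 exons are not separate observations, since nearly all of their TPM is that of Ank3-240, at 13.2% and 10.6% of Ank3 TPM. Ank3-210, with the same start and stop codons, went the other way, at 0.87% and 3.29%.

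Across the 9 genes, 69 coding exons could be skipped in the annotation, and 31 lay between 5% and 95% in both libraries by both quantifications. Of these, Ank3 had 12, Nfasc 8, Ank2 6, Nrcam 3, and Sptan1 and L1cam 1 each. The 3 beta spectrins have no skippable coding exon in the annotation, so none of theirs could be counted. The length of 29 of the 31 was a multiple of 3, so that skipping keeps the reading frame. Most of the 69 skippable exons also had such a length, and whether the 31 differ from the rest in this was not tested. For 24 of the 31 the libraries differed by less than 5 percentage points.

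**Figure D4:**
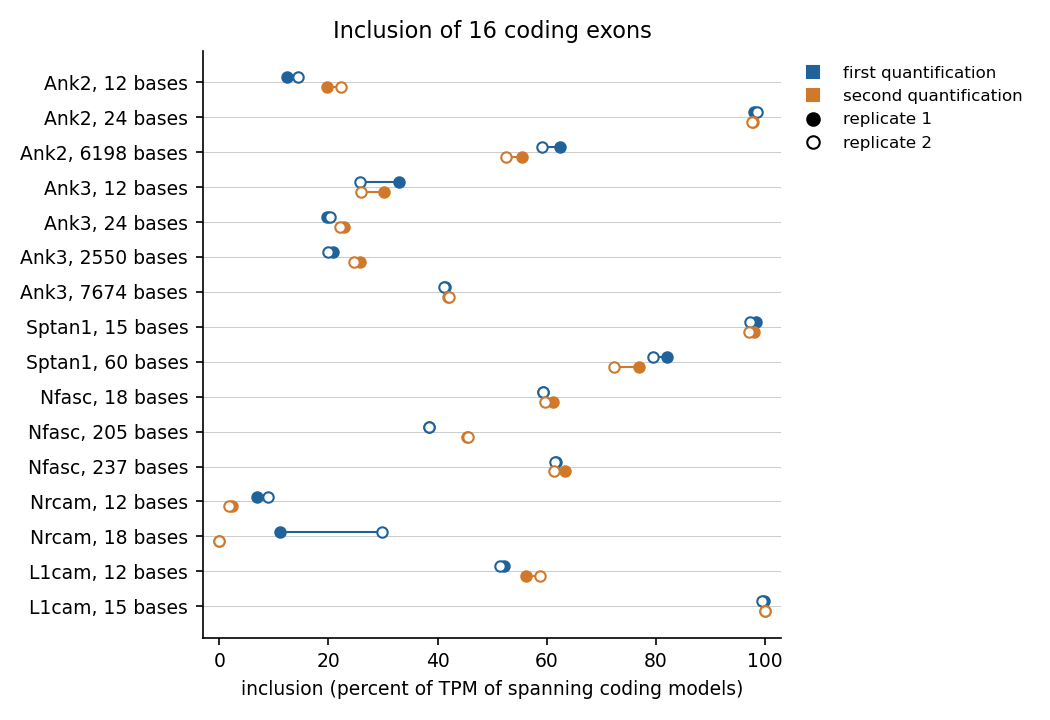
Inclusion of 16 coding exons (percent of the TPM of coding models that hold or skip the exon), with replicate 1 filled, replicate 2 open, first quantification blue and second orange. The Ank2 and Ank3 24-base exons sit far apart.

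Sptan1-203, of 2477 codons, held 55.0% and 54.4% of Sptan1 TPM and Sptan1-204, of 2457 codons without the 60-base exon, 11.6% and 13.4%. The 60-base exon was included at 82.1% and 79.5% (76.9% and 72.4% by the second quantification), and a 15-base exon of the same gene at 98.3% and 97.3%. Sptb was almost all Sptb-201, of 2329 codons, at 92.7% and 92.5%. The shorter Sptb-202, of 2137 codons with another carboxy-terminal end, is of the erythroid kind and held 6.09% and 6.38%. Red cell markers were present in both libraries, and their part in this share was not tested. Sptbn1-201, of 2363 codons, held 85.5% and 94.1% of Sptbn1. Sptbn1-202, which has the same coding sequence, held 6.49% and 0.16%. By the second quantification Sptbn1-204, an incomplete model with the same start codon, held 14.2% and 17.1% where the first gave it 1.03% and 0.79%.

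Sptbn4 was mostly a short form. Full-length beta-IV spectrin (Sptbn4-201, 2561 codons) held 30.2% and 29.9% of TPM, and short models of 1241 codons held 63.3% and 64.0%. The short models share the stop codon of Sptbn4-201, and every coding base of them lies within it, so they lack the amino-terminal part that in beta spectrins binds actin. Both forms are known from brain initial segments and nodes. By the second quantification the long forms held 34.1% and 31.3% and the short 56.2% and 53.2%. Which short model took the reads differed: Sptbn4-203 held 57.4% and 60.6% by the first but 2.3% and 9.0% by the second, where Sptbn4-202 held 52.3% and 43.5%. Their coding sequences are the same, so the protein they predict does not depend on that choice.

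Nfasc makes a neuronal form, found at initial segments and nodes, and a glial form of the paranode, which differ in exons of the outer domain. Nfasc-202, of 1240 codons, held 51.9% and 54.5% of Nfasc TPM. It carries 3 exons of 237, 117 and 153 bases that mark the neuronal form, included at 61.6% and 61.5% (63.3% and 61.4% by the second quantification). Nfasc-201 held 19.96% and 21.5%, and Nfasc-203 12.4% and 12.6%. They carry instead 2 exons of 205 and 116 bases that mark the glial form, included at 38.4% and 38.5% (45.3% and 45.6%). Among the exons used part of the time, only those 2 have lengths that break the frame singly. Every model listed holds both of them or neither. By counts the neuronal exons stood at 77.4% and 77.3%, since Nfasc-202 is longest at 9739 bases. Nfasc-207, which holds both sets, was at 0% by the first quantification and at 7.17% and 6.14% by the second.

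The 18-base exon and a 45-base exon also belong to Nfasc-202, at 59.3% and 59.2% and at 63.1% and 63.0%. A 51-base exon carried by Nfasc-203 stood at 14.1% and 13.7%. The libraries differed by less than 1 percentage point for each Nfasc exon by the first quantification.

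**Figure D5:**
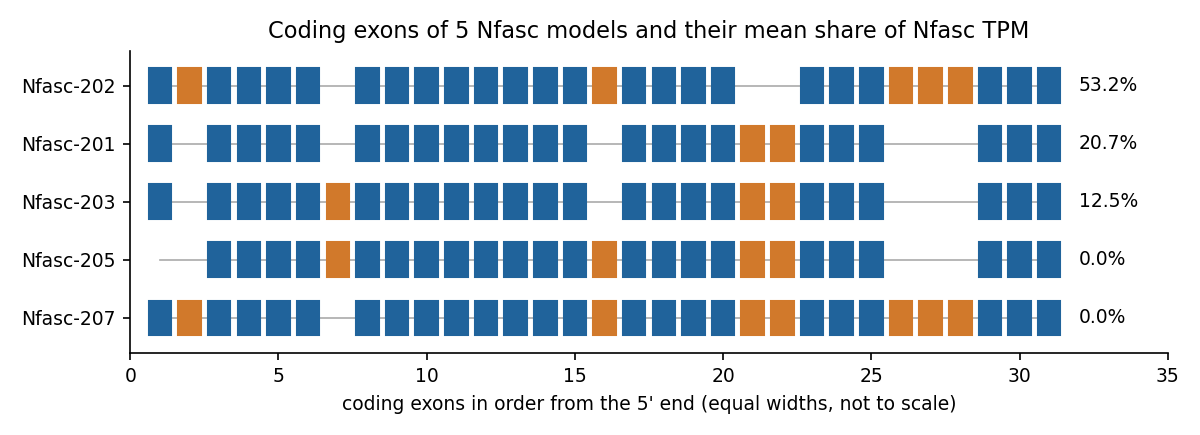
Coding exons of 5 Nfasc models in order from the 5′ end, drawn at equal width, with exons used part of the time in orange and the mean share of Nfasc TPM at right. Nfasc-202 (53.2%) holds the set that marks the neuronal form, and Nfasc-201 (20.7%) and Nfasc-203 (12.5%) hold the pair that marks the glial form.

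L1cam carried its 15-base exon nearly always, at 99.8% and 99.5%, and at 100% in both libraries by the second quantification. Its 12-base tail exon was included at 52.2% and 51.5% (56.1% and 58.8% by the second), a split between L1cam-202, at 34.9% and 34.3% of L1cam TPM, and L1cam-203, at 31.7% and 32.0%. By the first quantification the libraries differed in this split by less than 1 percentage point, although L1cam itself differed most in TPM. In Nrcam the matching 12-base exon stood at 7.01% and 8.89%, and at 2.38% and 1.77% by the second quantification. Only the coding model Nrcam-205 was counted with this exon, and Nrcam-215, annotated for nonsense-mediated decay and so not counted, also carries it. In L1cam the retained-intron model L1cam-209 carries the 12-base exon and was likewise not counted.

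The 18-base exon of Nrcam stood at 11.1% and 29.8% by the first quantification and at 0% by the second. Only the coding model Nrcam-206, of 823 bases, was counted with it. Models that are not protein coding, and so were not counted, carry it too. Among them Nrcam-215 held 14.3% and 13.3% of Nrcam TPM by the second quantification. Exons of 30, 36 and 153 bases were included at 62.7% and 56.6%, at 73.2% and 66.3%, and at 45.0% and 44.0%. These are not separate observations, since each sets Nrcam-201 against Nrcam-202. The rates differ because the incomplete Nrcam-214 holds the 36-base exon and skips the 153-base exon. Over complete models each stood at 62.7% and 56.6%. Nrcam-215, not counted, also carries the 30-base and 36-base exons. The complete models Nrcam-201, of 1256 codons, and Nrcam-202, of 1186 codons, held 18.1% and 16.7% and 10.8% and 12.8% of Nrcam TPM. Models annotated for nonsense-mediated decay, a route that degrades messages with an early stop, took 26.4% and 24.1%. They were led by Nrcam-215 at 14.1% and 11.7%, and the second quantification gave the 682-base Nrcam-204 21.2% and 20.3%. Nrcam-208, a retained-intron model of 677 bases, stood at 10.6% and 6.0% by the first and 14.8% and 20.3% by the second.

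Little sequence of the 9 genes is shared with other genes. Words of 31 bases found in another gene made up 0.19% of Sptan1 and 3.06% of Sptbn4, the lowest and the highest. L1cam shares 100 exon bases with Arhgap4 on the same strand, which was at 2.19 and 1.69 TPM. Sptbn4 overlaps Gm20479, Gm44924 and Ank2 the antisense Gm16958, all at or under 0.3 TPM. Whether counting used strand remains not given in the sources used here, so reads of overlapping antisense genes cannot be told apart.

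Other genes of the initial segment were set beside the members from lists chosen by function. All 11 channels and channel partners passed 1 TPM, with medians of 52.5 and 59.8 TPM in the libraries. The lowest was Scn4b at 3.04 ± 0.629 TPM. All 8 scaffold and microtubule genes passed, from Dlg2 at 125 ± 8.81 to Mtcl1 at 12.3 ± 1.39 TPM. So did all 7 genes of the paranode and juxtaparanode, from Cntn1, which pairs with the glial neurofascin form across the junction, at 174 ± 5.34 to Cntn2 at 22.6 ± 1.80 TPM. Of 9 partners that join spectrin to actin all passed, from Tmod2, a tropomodulin that caps actin, at 181 ± 2.41 to Tmod1 at 6.02 ± 0.191 TPM. Proteases that cut spectrin, with their inhibitor, had the lowest medians of these lists, at 10.6 and 11.1 TPM. All 4 lay between Capn2 at 28.6 ± 1.11 and Cast at 2.52 ± 0.247 TPM. Sptan1 thus stood above every gene of these lists in mean TPM. Sptbn4, at 47.0 and 46.7 TPM, stood below the medians of the channel, scaffold (51.5 and 48.2 TPM), paranode (59.5 and 53.5 TPM) and actin-partner lists (89.8 and 82.5 TPM) in both libraries. By the second quantification Sptbn4, at 67.4 and 72.5 TPM, lay above the scaffold median in replicate 2 (71.6 and 66.8 TPM). It stayed below the medians of the other lists just named in both libraries.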

How the data were processed

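The 9 genes, the lists and the alternatives were chosen with earlier results of these data known. The authors quantified each library on mm10 with GENCODE M21, per the notes deposited with them. In the first quantification, the gene tables and transcript tables hold the authors' expected counts, TPM and FPKM, per the file headers. They also give each transcript's percent of its gene's TPM, as the authors deposited it. For the second, the authors deposited transcripts only, with estimated counts and TPM that were summed here per gene. Aligner, tool versions and strand setting remain not given in the sources used here. Mapping CAST/EiJ reads to the C57BL/6J sequence can lower counts, and alleles were not separated.

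Levels are deposited TPM, mean ± SD over 2 libraries. Replicate ratios used expected counts with TMM scaling (edgeR 4.0.16, R 4.3.3) with a prior count of 0.5 (genes at or above 1 TPM on average and 50 counts in all), and 95% exact binomial intervals that cover counting error only. Quantifications were compared on log2(TPM + 0.1) with a 2-fold limit. Exon inclusion used coding models that hold or skip the exon, leaving out those with an overlapping version. A model was complete without a tag for a missing start or end. Named genes were the members, their paralogs, Scn2a, the highest and lowest gene of each related list, transcripts with at least 10% of a member's TPM in both libraries by either quantification, and the nearest protein-coding gene above and below each member. Some genes that this rule takes, and values that need them, are not reported here. Other markers and transcripts are named where a value rests on them. Python 3.11.15 was used for the rest.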

Additional observations from a re-analysis of the deposited data

How the results depend on the processing

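With 2 libraries of 1 group no p-value could be given, and leaving out a library leaves the other's value. The median TPM of the members was 193 and ranged from 192.9 to 194.1 without each library in turn, but moved to 315 by the second quantification, 440 rescaled over nuclear protein-coding genes, 106.6 over protein-coding transcripts and 64.7 over complete coding models, and was 133.0 as FPKM. The ratio of Sptbn1 to Sptbn4 moved from 6.22 to 6.13 by the second quantification, 6.05 over protein-coding transcripts and 6.32 over complete coding models, and ranged from 6.22 to 6.23 by library. The count of members outside 1.2-fold was 0 with DESeq2 size factors, the second quantification's counts and both other filters. It was 1 on TPM with a pseudocount of 1 or 0.1. The share of all genes outside was 20.99% with DESeq2 size factors and 19.9% by the second quantification's counts. That share was 48.7% with no filter and 12.9% among genes of at least 5 TPM. On TPM it was 21.9% with a pseudocount of 1 and 27.3% with 0.1. The median share of TPM in complete coding models moved from 69.6% to 71.7% by the second quantification (68.4% to 70.8% by library), and that of Ank2 models over 10 kb from 25.7% to 31.9% (24.6% to 26.9% by library), and was the same with limits of 8 or 12 kb. Members over 1.5-fold apart between quantifications were 4, against 1 over 2-fold. Of 14785 detected genes, 53.3% were over 1.5-fold apart and 12.1% over 2-fold. Of the 31 exons used part of the time, 1 moved by more than 10 points by the second quantification and 12 by counts. Over complete models 15 did, where exons carried only by incomplete models, such as Ank3-244, Ank3-233 and Ank2-218, drop to 0%. The alternatives for exons and those over complete models were chosen after seeing the data. No paired analysis was possible because there is only 1 group. Isoform values rest on the annotated models, and short reads do not show which distant exons share a molecule.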
